A study of Mus musculus with 10 samples.

Results

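The TTAC 8-mers described here are DNA words of 8 bases that hold the half-site TTAC, which PAR-type bZIP proteins read, on either strand and have no CG dinucleotide anywhere. They were chosen by sequence alone from the 8-mers of the array design, each merged with its reverse complement: 855 of 32896 8-mers, and 855 of the 20349 without CG, met the rule. TTAC is the first half-site of the CRE octamer with its second base changed to T, and 8-mers that also hold the unchanged half-site TGAC were left out, which removed 3. The set was proposed with earlier results of these arrays known, in which such words stood among the highest in CREB1(A297V) over CREB1 on unmethylated DNA. Comparisons between proteins on unmethylated DNA are therefore given as a description, with no p-value, and the unmethylated arrays also enter the comparisons of methylated with unmethylated DNA. An 8-mer was read on 16 to 39 probes, with a median of 34.

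The arrays are protein binding microarrays, slides that carry short double-stranded probes in a DeBruijn arrangement, so that each short word occurs in many contexts. GST-tagged DNA-binding domains of 3 mouse bZIP proteins made by in vitro transcription and translation were bound to them. The 10 arrays form 5 groups of 2: CREB1(A297V) on methylated DNA, CREB1(A297V) on unmethylated DNA, CEBPB(V285A) on methylated DNA, CEBPB(V285A) on unmethylated DNA, and wild-type CREB1 on unmethylated DNA. Methylated arrays had been treated for 3 h with M.SssI, an enzyme that methylates the cytosine of CG dinucleotides. These are DNA-binding domains with an N-terminal GST tag, expressed outside cells, and not full-length proteins. Wild-type CEBPB, and CREB1 on methylated DNA, were not analysed here. The labels do not say that the paired arrays come from separate protein preparations, so each p-value rests on a spread between arrays that may be no more than technical.

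A bZIP protein binds DNA as a dimer, and the basic helix of each chain lies in the major groove over one half-site. CREB1, the cAMP response factor, is known for the half-site TGAC, C/EBP proteins such as CEBPB for TTGC, and the PAR family (DBP, HLF and TEF, transcription factors with a circadian output in liver and other tissues) for TTAC. The substitutions A297V and V285A exchange alanine and valine at corresponding positions of the basic regions of CREB1 and CEBPB.

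The sequences that carry the results are written with the half-site TTAC in capitals and the other bases in lower case. The first 9 join TTAC to the second half-site of a PAR (gtaa), CRE (gtca) or C/EBP (gcaa) site, with its first base changed from G. They thus end in taa, tca or caa and keep the length of the full octamer without its CG.
PAR-type, next base A: TTACataa
PAR-type, next base C: TTACctaa
PAR-type, next base T: TTACttaa
CRE-type, next base A: TTACatca
CRE-type, next base C: TTACctca
CRE-type, next base T: TTACttca
C/EBP-type, next base A: TTACacaa
C/EBP-type, next base C: TTACccaa
C/EBP-type, next base T: TTACtcaa
The next 8 are shown because they stood among the highest in a group, were most above CEBPB(V285A) with CREB1(A297V), or rose most with CREB1(A297V) on methylated DNA. Most have an A before the half-site. Words that differed most in the other direction are named further below.
A before, ACA after: aTTACaca
A before, AAA after: aTTACaaa
A before, TCA after: aTTACtca
A before, TAA after: aTTACtaa
ACAT after: TTACacat
ACAC after: TTACacac
GA before, AT after: gaTTACat
half-site on both strands: gtaaTTAC
The octamers that do hold a CG where the half-sites meet serve as a scale.
PAR octamer with CG: TTACgtaa
PAR and CRE half-sites with CG: TTACgtca
PAR and C/EBP half-sites with CG: TTACgcaa

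Levels are Z-scores of the log2 spot signal: for each 8-mer the median over its probes, less the median of all 8-mers of that array, in units of the scaled median absolute deviation of that array. A Z-score is thus a level relative to all other words on the same array, and a mean Z of 3 or more in a group is called bound here. Median spot signal per array ranged from 345 to 1857 and signal over background from 1.79 to 5.10. The range of signal was narrowest on the unmethylated CREB1(A297V) arrays, where the highest 8-mer lay 2.79 and 2.68 log2 units over the array median. The 2 methylated CREB1(A297V) arrays have a layout of their own, in which 0% of probes keep the position they have on the first array, while 100% do on every other array, so layout and group cannot be told apart there. Every probe also carries a CG in its linker, outside the variable region of 35 bases.

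As a class, the TTAC 8-mers stood above the median of all words without CG in all 5 groups, and furthest above it with CREB1(A297V). Their median Z was 2.51 and 3.01 on the methylated CREB1(A297V) arrays and 1.84 and 2.50 on the unmethylated ones. With CEBPB(V285A) it was 1.54 and 1.43 on methylated and 1.11 and 1.11 on unmethylated DNA, and with CREB1 it was 0.84 and 0.77. Every array of CREB1(A297V) lay above every array of CEBPB(V285A), and both CREB1 arrays lay lowest. The median of all 8-mers without CG, the TTAC words included, lay between -0.025 and 0.094 in the group means. Words of related kinds did not all lie lower. In the group order of the opening, TTAC words averaged 2.76, 2.17, 1.48, 1.11 and 0.81, and words with TTACG 4.18, 2.25, 3.93, 3.21 and 2.34. The gap with CREB1(A297V) on unmethylated DNA lay within the spread of the arrays. TGAC words without CG averaged 0.71, 0.29, 1.00, 1.11 and 1.02.

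The numbers of bound TTAC 8-mers had the same order. With CREB1(A297V), 396 of 855 (46.3%) were bound on methylated DNA and 273 (31.9%) on unmethylated DNA, where 2.9% and 1.68% of all 8-mers were. With CEBPB(V285A) these numbers were 181 (21.2%) and 106 (12.4%), against 3.28% and 3.5% of all 8-mers. With CREB1 they were 15 (1.75%), against 2.69%. The share of all words counts words with CG, and with CREB1 0.835% of all 8-mers without CG and 0.264% of those with none of the 3 half-sites TTAC, TGAC and TTGC were bound. On methylated DNA CREB1(A297V) bound 554 8-mers without CG in all, and 396 of them were among the 855 TTAC 8-mers. Of the 855, 438 were bound in no group, 261 by CREB1(A297V) on both kinds of DNA, 101 by CEBPB(V285A) on both, and 91 by both mutants on both. Of the 261, 113 were bound in no other group and 14 in all 5 groups. Overlapping words share probes and are not independent measurements.

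The 3 8-mers left out because they hold TGAC as well were GTAATGAC, GTAAGTCA and GTCAGTAA. In GTAATGAC the half-sites TTAC and TGAC lie on opposite strands. In GTAAGTCA and GTCAGTAA both lie on the same strand, the one opposite to that written. GTAATGAC had a mean Z of 7.70 and 4.36 with CREB1(A297V) on methylated and unmethylated DNA, of 5.63 and 7.44 with CEBPB(V285A), and of 4.86 with CREB1. The other two did not pass 3.21 in any group mean.

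The base that follows TTAC ordered the levels. With an A next (232 8-mers), the median Z averaged 4.20 ± 0.60 and 3.20 ± 0.65 with CREB1(A297V) on methylated and unmethylated DNA (SD, n = 2 arrays each). It averaged 2.72 ± 0.095 and 1.77 ± 0.051 with CEBPB(V285A), and 1.22 ± 0.050 with CREB1. With a T next (231 8-mers) the 5 group averages, in the same order, were 2.24, 1.85, 0.91, 0.73 and 0.54, and with a C next (186 8-mers) they were 1.87, 1.60, 0.83, 0.76 and 0.48. A next base A thus stood highest in every group, and T and C lay closer to each other than to A. In 206 8-mers TTAC ends the word and the next base is any of the 4, G included.

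Word by word, with all other bases held the same, A stood above C in 179 of 186 pairs with CREB1(A297V) on methylated DNA, 178 on unmethylated DNA, 179 and 171 with CEBPB(V285A), and 163 with CREB1. A stood above T in 216, 210, 214, 203 and 176 of 231 pairs in the same groups.

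The order of the pairs of following bases was not the same for the 2 mutants. TTAC followed by AC (38 8-mers) had a median Z of 5.74 ± 0.79 and 3.70 ± 0.63 with CREB1(A297V) on methylated and unmethylated DNA, and of 2.82 ± 0.12 and 1.91 ± 0.32 with CEBPB(V285A). TTAC followed by AT (46 8-mers) had 4.56 ± 0.39 and 3.37 ± 0.75 with CREB1(A297V), and 4.99 ± 0.081 and 3.33 ± 0.063 with CEBPB(V285A). AC was the highest pair for CREB1(A297V) on methylated DNA, and AT the highest for CEBPB(V285A) on both kinds of DNA. Followed by AA (46 8-mers), the half-site had 4.34 and 3.69 with CREB1(A297V), 2.39 and 1.38 with CEBPB(V285A), and 1.49 with CREB1, so that AA and AC did not differ beyond their spread with CREB1(A297V) on unmethylated DNA. Followed by CC (38 8-mers) it had 0.86 and 1.35 with CREB1(A297V), -0.10 and 0.024 with CEBPB(V285A), and 0.37 with CREB1. CC was the lowest pair in each group but CREB1, where TC (0.25) and TG (0.32) lay lower, and TC (1.38) lay within the spread of it with CREB1(A297V) on unmethylated DNA. Among the 50 highest TTAC 8-mers, 5 and 4 had AT next with CREB1(A297V) on methylated and unmethylated DNA, against 21 and 18 with CEBPB(V285A).

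The base before the half-site ordered the levels as well. With an A before (185 8-mers), the median Z was 6.10 ± 0.80 and 3.85 ± 0.99 with CREB1(A297V) on methylated and unmethylated DNA, 2.95 and 2.23 ± 0.030 with CEBPB(V285A), and 1.43 ± 0.096 with CREB1. With a G before (148 8-mers) the group averages were 2.60, 1.85, 2.09, 1.54 and 0.75, with a C (184 8-mers) 2.26, 1.53, 0.97, 0.62 and 0.42, and with a T (186 8-mers) 1.92, 1.69, 0.65, 0.47 and 0.57. G came second to A in every group. Word by word, the median gap between A and G was 3.64 ± 0.53 and 2.22 ± 0.56 with CREB1(A297V) on methylated and unmethylated DNA, and 1.01 ± 0.081 and 1.00 ± 0.058 with CEBPB(V285A). Exchanging the A before for a T, all else equal, lowered the Z-score in 185 of 185 pairs with CREB1(A297V) on methylated DNA and in 184 on unmethylated DNA. With CEBPB(V285A) it did so in 183 and 181 of them, and with CREB1 in 163. With an A on both sides (46 8-mers), all 46 were bound by CREB1(A297V) on both kinds of DNA, 43 and 32 by CEBPB(V285A), and 4 by CREB1. With a C on both sides (38 8-mers), 3 were bound by CREB1(A297V) on methylated DNA and 0 in each other group.

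The place of TTAC within the word went with smaller gaps than its flanks did. Over the 5 possible starts the median Z ranged from 2.60 to 2.91 with CREB1(A297V) on methylated DNA, and from 1.23 to 1.80 with CEBPB(V285A) on methylated DNA.

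Among the 9 octamers, one that joins TTAC to taa stood highest with each mutant on each kind of DNA, and TTACatca stood highest with CREB1. TTACctaa had Z-scores of 18.8 and 20.8 on methylated and 9.80 and 14.6 on unmethylated DNA with CREB1(A297V). With CEBPB(V285A) it had 8.19 and 9.23 on methylated and 6.33 and 5.81 on unmethylated DNA, and with CREB1 2.60 and 2.95. All 4 CREB1(A297V) arrays lay above all CEBPB(V285A) arrays. On the linear scale its probes gave 15.1 times the array median with CREB1(A297V) on methylated DNA and 2.88 times on unmethylated DNA, 4.79 and 2.35 times with CEBPB(V285A), and 1.35 times with CREB1.

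Its neighbour TTACataa differs from it only in the base after TTAC and ordered the proteins otherwise. It had Z-scores of 14.0 and 17.2 on methylated and 10.8 and 12.8 on unmethylated DNA with CREB1(A297V). It had 16.8 and 15.3 on methylated and 16.1 and 15.7 on unmethylated DNA with CEBPB(V285A), and 2.81 and 3.50 with CREB1. On methylated DNA the Z-scores of the mutants overlapped. On the linear scale, not divided by the spread of each array, TTACataa gave 17.8 times the array median with CEBPB(V285A) and 8.56 times with CREB1(A297V) on methylated DNA. On unmethylated DNA it gave 9.37 and 2.83 times, in the same order. TTACataa was the highest TTAC 8-mer for CEBPB(V285A), TTACctaa for CREB1(A297V) on methylated DNA, aTTACaca (12.9 ± 2.71) for CREB1(A297V) on unmethylated DNA and gtaaTTAC (4.96 ± 0.96) for CREB1. In the CREB1(A297V) unmethylated group the 2 arrays of aTTACaca (11.0 and 14.8) and of TTACctaa overlapped, so their order there is not settled. Likewise the CREB1 arrays of gtaaTTAC (4.28 and 5.64), a word read on 16 probes, overlapped those of TTACatca (4.46 and 4.36).

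With the CRE-type ending tca, TTACatca had a mean Z of 11.7 ± 1.55 and 7.37 ± 1.47 with CREB1(A297V) on methylated and unmethylated DNA. It had 13.5 ± 0.18 and 12.3 ± 0.082 with CEBPB(V285A), and 4.41 ± 0.071 with CREB1. TTACctca had 12.2 and 6.87 with CREB1(A297V), 6.50 and 3.08 with CEBPB(V285A), and 1.73 with CREB1. With the C/EBP-type ending caa, TTACacaa had 8.57 and 5.71 with CREB1(A297V), 9.40 and 6.41 with CEBPB(V285A), and 1.48 with CREB1. TTACccaa was the lowest of the 9 with CREB1(A297V), at 2.29 and 2.30, and had 4.12 and 3.10 with CEBPB(V285A) and 0.58 with CREB1. The base T after TTAC gave 10.9 and 6.26 (TTACttaa), 5.28 and 3.78 (TTACttca) and 7.77 and 3.91 (TTACtcaa) with CREB1(A297V) on methylated and unmethylated DNA. For CEBPB(V285A), A after TTAC was highest with each of the 3 endings on both kinds of DNA. For CREB1(A297V) on methylated DNA C was highest with taa and A with caa, and C and A overlapped with tca.

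With the same endings, the octamers that hold a CG where the half-sites meet stood higher still. TTACgtaa had a mean Z of 26.6 ± 2.54 and 21.6 ± 3.47 with CREB1(A297V) on methylated and unmethylated DNA, 22.3 ± 2.32 and 25.5 ± 0.037 with CEBPB(V285A), and 15.4 ± 0.82 with CREB1. TTACgtca had 22.8 and 18.5 with CREB1(A297V), 21.0 and 24.3 with CEBPB(V285A), and 21.2 with CREB1. TTACgcaa had 15.4 and 8.85 with CREB1(A297V), 17.7 and 17.4 with CEBPB(V285A), and 5.74 with CREB1. On methylated arrays these 3 words carry methylated cytosines. The TTAC 8-mers hold no CG themselves, but those that end in C or begin with G can form one with the neighbouring base of a probe.

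Setting each TTAC 8-mer beside the word with G next compared it with the octamer core that does hold a CG. TTACA stood above TTACG with the same flanks in 137 of 232 pairs with CREB1(A297V) on methylated DNA and in 171 on unmethylated DNA. With CEBPB(V285A) it did so in 51 and 23 pairs, and with CREB1 in 33. TTACC stood above TTACG in 2 and 35 of 186 pairs with CREB1(A297V), in 1 and 5 with CEBPB(V285A), and in 6 with CREB1. TTACT did in 35 and 84 of 231 pairs, 10 and 5, and 12. With CREB1(A297V) A stood above G in most pairs, and with CEBPB(V285A) and CREB1 G stood above each other base in most pairs.

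Setting each TTAC 8-mer beside the TGAC word with the same flanks separated the 3 proteins. TTAC stood above TGAC in 837 of 853 pairs with CREB1(A297V) on methylated DNA and in 830 on unmethylated DNA. It did so in 632 and 441 pairs with CEBPB(V285A), and in 354 with CREB1. Among pairs in which at least 1 of the words was bound, it stood above in 392 of 397 and 271 of 273 with CREB1(A297V), in 167 of 197 and 55 of 158 with CEBPB(V285A), and in 3 of 108 with CREB1. The median difference, TTAC minus TGAC, was 2.20 ± 0.32 and 1.91 ± 0.27 with CREB1(A297V), 0.56 ± 0.11 and 0.023 ± 0.076 with CEBPB(V285A), and -0.27 ± 0.27 with CREB1 (SD, n = 2 arrays each). The last 2 of these lay within their spread of 0. TTACataa stood at 15.6 and 11.8 with CREB1(A297V), against 7.42 and 5.38 for TGACataa. With CEBPB(V285A) the 2 words had 16.1 and 15.9 against 14.7 and 13.4, and with CREB1 3.16 against 5.28.

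On unmethylated DNA the fit across all 8-mers, which was also in view when the set was proposed, called 595 TTAC 8-mers higher and 1 lower with CREB1(A297V) than with CREB1, while 8.13% and 10.8% of all 8-mers were called. Between CEBPB(V285A) and CREB1 it called 81 higher and 7 lower, with 3.67% and 2.53% of all 8-mers. Between CREB1(A297V) and CEBPB(V285A) it called 433 higher and 14 lower, with 11.5% and 14.1% of all 8-mers. Each of these comparisons shares arrays with the other two. The median differences over the 855 were 1.38, 0.31 and 1.03, and nothing is read from these counts.

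The comparison behind the choice of the words used no methylated array. On methylated DNA, TTAC 8-mers had higher Z-scores with CREB1(A297V) than with CEBPB(V285A): 512 of 855 (59.9%) were called higher and 7 lower, with 5.49% and 6.75% of all 32896 8-mers (limma with a variance trend, Benjamini-Hochberg adjusted p under 0.05 over all 8-mers, 2 arrays each). The CREB1(A297V) arrays used here are those with a layout of their own, so protein and layout cannot be told apart in this comparison. The median difference over the 855 was 1.34, against -0.056 over all 8-mers, and 778 were positive. The TGAC 8-mers without CG moved the other way, with 14 higher and 111 lower of 855. TTAC words that do hold a CG moved the same way, with 62 higher and 19 lower of 256 with TTACG. Of 165 with the CG elsewhere, 68 were higher and 5 lower. With a score centred on the median but not scaled by the spread, 506 TTAC 8-mers were higher and 66 lower. Leaving out single arrays lowered the counts most without CREB1(A297V) methylated replicate 2 (246 higher and 3 lower), and also without CEBPB(V285A) methylated replicate 1 (317 and 4) or replicate 2 (303 and 3).

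The size of this difference varied with the following bases and with the base before. With AC next, 34 of 38 8-mers were called higher, with a median difference of 3.16. With TA next 44 of 46 were higher (median 1.72), and with AA next 37 of 46 (median 2.47). With AT next 8 of 46 were higher and 5 lower, and the median difference was 0.084. With an A before the half-site 158 of 185 were higher, and with a G before 29 of 148 were higher and 5 lower.

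TTACacac differed most. It had Z-scores of 14.4 and 17.1 with CREB1(A297V) on methylated DNA, and of 2.35 and 2.84 with CEBPB(V285A) on methylated DNA. The difference was 13.2 ± 1.02 (SE, adjusted p = 1.57e-07 by limma). TTACacat, which shares 7 bases with it, had 15.5 and 18.1 with CREB1(A297V) and 4.53 and 3.64 with CEBPB(V285A), a difference of 12.7 ± 1.15 (adjusted p = 8.59e-07 by limma). aTTACaaa had 15.8 and 18.2 with CREB1(A297V) and 3.87 and 4.98 with CEBPB(V285A), a difference of 12.6 ± 1.21 (adjusted p = 1.53e-06 by limma). None of these arrays overlapped between the mutants.

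At the other end, ggTTACat had 2.60 and 2.89 with CREB1(A297V) and 5.62 and 5.52 with CEBPB(V285A), a difference of -2.82 ± 0.40 (adjusted p = 0.000113 by limma). TTACatga (-2.56, adjusted p = 0.0028 by limma) and gTTACcca (-2.37, adjusted p = 0.000501 by limma) were the other 2 of the 3 largest falls. On probes without CG, gTTACcca had a difference of 0.66, the opposite sign, and TTACatga one of -0.12 (adjusted p = 0.911 by limma). The call of TTACatga was also lost without CREB1(A297V) methylated replicate 2, while that of ggTTACat held in all 22 alternatives. Of the 9 octamers, TTACctaa (11.1 ± 1.67), TTACttaa (4.98 ± 0.83) and TTACctca (5.70 ± 0.91) were called higher and TTACccaa (-1.82 ± 0.40) lower with CREB1(A297V). The call of TTACctaa was lost with the authors' deposited Z-scores (adjusted p = 0.0871 by limma). That of TTACccaa was lost on probes without CG (adjusted p = 0.612 by limma) and without CREB1(A297V) methylated replicate 1 or 2 or CEBPB(V285A) methylated replicate 2. TTACataa gave -0.41 ± 2.36 and was not called (adjusted p = 0.937 by limma). With so wide a standard error, the missing call does not show that the mutants bound it alike.

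Methylated and unmethylated arrays of one protein were compared next, on words that hold no CG themselves. A word that ends in C or begins with G can still form a CG with the neighbouring base of a probe, which M.SssI can methylate. Between the methylated and unmethylated arrays, methylation and array identifier cannot be told apart. With CREB1(A297V), 349 TTAC 8-mers (40.8%) were called higher and 22 (2.57%) lower on methylated DNA, with 10.4% and 11.1% of all 8-mers, and the median difference was 0.87. The range of signal moved with this result: on the linear scale aTTACaca lay 12.2-fold over the array median on methylated DNA and 3.09-fold on unmethylated DNA. The part of that range in the result was not tested, but scores brought to one distribution gave 173 higher and 84 lower, and a normexp background correction 93 and 44. Without CREB1(A297V) methylated replicate 2 the fit called 113 higher and 13 lower, and without unmethylated replicate 1 178 and 31. Words of related kinds were called as well: 182 higher and 29 lower of 855 TGAC 8-mers without CG, and 185 higher and 2 lower of 256 8-mers with TTACG.

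The largest rises were those of aTTACtca, TTACctaa and aTTACtaa. aTTACtca had Z-scores of 14.3 and 16.1 on methylated and 6.02 and 8.85 on unmethylated DNA, a difference of 7.75 ± 0.98 (adjusted p = 5.36e-05 by limma). TTACctaa differed by 7.60 ± 1.67 (adjusted p = 0.004 by limma) and aTTACtaa by 7.59 ± 0.95 (adjusted p = 4.9e-05 by limma). All 3 calls were lost with quantile normalization and with only the groups compared, those of aTTACtca and TTACctaa also with normexp, and that of TTACctaa also without probes holding a CG core, meaning a half-site of CRE, PAR or C/EBP type followed by G (highest adjusted p 0.111 for aTTACtca, 0.631 for TTACctaa and 0.273 for aTTACtaa, by limma). The 3 largest falls were those of words with lower levels. TTACccct had -1.07 and -0.74 on methylated and 0.91 and 1.22 on unmethylated DNA, a difference of -1.97 ± 0.24. ctTTACtt fell by 1.75, with a mean Z of 0.099 on methylated and 1.85 on unmethylated DNA, and tTTACttt fell by 1.69, with 1.38 and 3.07. Each of the 3 calls was lost on probes without CG, where that of ctTTACtt changed sign, and those of ctTTACtt and tTTACttt also with the authors' deposited Z-scores. By following bases, rises were called for 28 of 38 8-mers with AC next and 26 of 46 with AT next, and for 1 of 38 with CC next, where 9 fell. Where TTAC ends the word and a G may follow on the probe, 109 of 206 (52.9%) were called higher. The shares with A, C and T next were 54.7%, 27.4% and 26.8%.

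With CEBPB(V285A), 60 TTAC 8-mers (7.02%) were called higher and 0 lower on methylated DNA. At an unadjusted limma p under 0.05 these counts were 200 and 10. Of all 8-mers 3.84% and 3.73% were called, and of all those without CG 5.03% were called higher. The median difference was 0.45. The count rested on all 4 arrays: it was 2 to 9 without any 1 of the CEBPB(V285A) arrays (2 without unmethylated replicate 1, 9 without unmethylated replicate 2, 3 and 8 without methylated replicates 1 and 2). Without CREB1(A297V) unmethylated replicate 1 or 2, which enter only through the shared variance, it was 121 and 123. Among the called words TTACctca had the largest rise, with 6.55 and 6.45 on methylated and 3.18 and 2.98 on unmethylated DNA, a difference of 3.42 ± 0.91 (adjusted p = 0.0292 by limma). TTACatga (2.81 ± 0.52, adjusted p = 0.00434 by limma) and ggtgTTAC (2.68 ± 0.54, adjusted p = 0.00715 by limma) followed among the called words. TTACacaa had a difference of 3.00 and was not called (adjusted p = 0.0569 by limma). The calls of TTACctca, TTACatga and ggtgTTAC held in 15, 18 and 16 of 22 alternatives, and leaving out any 1 of the 4 CEBPB(V285A) arrays ended those of TTACctca and ggtgTTAC. Without probes holding a CG core, ggtgTTAC had means of 3.41 on methylated and 2.26 on unmethylated DNA, against 5.82 and 3.15 on all its probes, and the call was lost. TTACataa differed by 0.15 ± 2.36 and was not called (adjusted p = 0.977 by limma).

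A test of whether the difference between methylated and unmethylated DNA itself differed between the mutants called 25 TTAC 8-mers higher and 3 lower with CREB1(A297V), with 1.64% and 1.42% of all 8-mers. It also called 32 higher and 3 lower of the 855 TGAC 8-mers without CG, and 33 and 0 of 256 words with TTACG. Of 831 other words with TTGC and no CG, it called 4 higher and 19 lower. The median over the 855 TTAC 8-mers was 0.45, against 0.45 over the TGAC 8-mers without CG and -0.021 over all 8-mers. The direction did not hold across scalings: quantile normalization gave 14 higher and 53 lower, and normexp 1 and 20. On probes without CG it was 14 and 13, and without probes holding CG cores 20 and 8. The count was 0 without CEBPB(V285A) unmethylated replicate 1 or methylated replicate 1, 2 without CEBPB(V285A) methylated replicate 2 or CREB1(A297V) methylated replicate 2, 4 without CEBPB(V285A) unmethylated replicate 2, 6 without CREB1(A297V) methylated replicate 1, 53 without either CREB1 array, 29 (14 higher and 15 lower) without CREB1(A297V) unmethylated replicate 1 and 150 without CREB1(A297V) unmethylated replicate 2. The 3 largest positive values were those of TTACacac (6.65 ± 1.44, adjusted p = 0.0218 by limma), aTTACtca (6.33 ± 1.38, adjusted p = 0.0219 by limma) and aTTACtaa (6.25 ± 1.34, adjusted p = 0.0216 by limma). Their calls held in 13, 10 and 12 of 22 alternatives.

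The order of the TTAC 8-mers within a protein was close between the kinds of DNA. Over the 855 words the Pearson correlation of group means was 0.924 between methylated and unmethylated arrays of CREB1(A297V) and 0.945 for CEBPB(V285A), against 0.984, 0.942, 0.984, 0.973 and 0.881 between replicate arrays of the 5 groups, in the order of the opening. Between the mutants on methylated DNA it was 0.768. Of the 50 highest words, 42 were shared between the kinds of DNA for CREB1(A297V), 41 for CEBPB(V285A), and 24 between the mutants on methylated DNA. These correlations are descriptions over words that share probes and base composition.

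Strings of 7 bases, picked after their values were seen and so given as levels only, show the contrast of the mutants. The 8 words with ATTACAT had a median Z of 8.13 and 4.92 with CREB1(A297V) on methylated and unmethylated DNA, 8.71 and 6.60 with CEBPB(V285A), and 1.47 with CREB1. The 7 words with ATTACAC had 12.0 and 6.54 with CREB1(A297V), 4.05 and 3.40 with CEBPB(V285A), and 2.24 with CREB1. The 8 words with TTACTAA had 7.44 and 3.66, 2.36 and 1.15, and 0.86 in the same groups, and the 8 with TTACTCA had 8.37 and 4.36, 2.10 and 1.40, and 0.86.

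Probe-level signal ordered the groups otherwise than the class medians of the Z-scores did. On the 503 probes that hold ATTACA on a single strand and no CG core, the median signal was 2.80- and 3.38-fold over the array median with CREB1(A297V) on methylated DNA and 1.49- and 1.57-fold on unmethylated DNA. It was 2.08- and 2.18-fold and 1.58- and 1.55-fold with CEBPB(V285A), and 1.16-fold on both CREB1 arrays. On this scale, which is not divided by the spread of each array, unmethylated CREB1(A297V) lay below methylated CEBPB(V285A) and overlapped unmethylated CEBPB(V285A). The word gave less signal near the linker: with CREB1(A297V) on methylated DNA the 165 probes with it next to the linker gave 1.80- and 1.91-fold, against 3.90- and 4.69-fold on the 171 with it furthest away. On probes with no CG in the variable region, which scored 725 of the 855 words on a median of 6 probes, the median Z of the TTAC 8-mers was 3.03 and 3.47 on methylated and 2.55 and 2.84 on unmethylated DNA with CREB1(A297V). With CEBPB(V285A) it was 1.95 and 1.73 on methylated, and 1.00 and 1.11 on unmethylated DNA. On the same probes the median of all 8-mers without CG was 0.50 and 0.49 on methylated and 0.52 and 0.17 on unmethylated DNA with CREB1(A297V), and 0.43 and 0.31 on methylated and -0.10 and -0.053 on unmethylated DNA with CEBPB(V285A).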

How the data were processed

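The deposited tables hold, per the file headers, the median signal and median background intensity of each of 40330 spots per array, linear and not background-subtracted. A Z-score for every 8-mer and array was deposited as well, a score whose steps are not given in the sources used here. It was used as an alternative, and its Spearman correlation with the score below was 0.783 to 0.953 per array.

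The log2 signal of each spot was lowered by the median of a window of 15 by 15 spots, the median was taken per 8-mer over at least 8 probes, and the result was centred and scaled within each array. limma 3.58.1 in R 4.3.3 (lmFit, eBayes with a trend) was fitted to all 10 arrays with 1 coefficient per group and 5 residual degrees of freedom. Each two-sided p was adjusted over all 32896 8-mers and called under 0.05. The script was tested on simulated data. The number of arrays limits the precision.

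The words and lists were chosen with earlier results of these data known. Words named are the 9 octamers, the 4 highest per group, the 3 largest called rises and falls per tested comparison, and the highest and lowest per next base, with their CG and TGAC partners. The 4 tested comparisons are those that use methylated arrays. They also use the unmethylated arrays behind the choice of the words. In the comparison of the mutants on methylated DNA those arrays enter only through the shared variance. Alternatives varied the scaling, background, probes, fit and arrays.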

Additional observations from a re-analysis of the deposited data

Results flagged for a closer look

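The test of whether the difference between methylated and unmethylated DNA differed between the mutants called 25 TTAC 8-mers higher and 3 lower with CREB1(A297V) than with CEBPB(V285A), with 1.64% and 1.42% of all 8-mers called. The count was not particular to TTAC words, as 32 higher and 3 lower were called of the 855 TGAC 8-mers without CG. Among the words named by rule, TTACacac (6.65), aTTACtca (6.33) and aTTACtaa (6.25) had a larger methylated minus unmethylated difference with CREB1(A297V) (adjusted p = 0.0218, 0.0219 and 0.0216 by limma). TTACccct (-1.90), aTTACttg (-1.96) and cTTACttc (-1.71) had a smaller one (adjusted p = 0.0117, 0.0421 and 0.0279 by limma). The calls of these 6 words, in the order given, held in 13, 10, 12, 13, 11 and 11 of 22 alternatives. TTACccct had a mean Z of -0.91 and 1.06 with CREB1(A297V) on methylated and unmethylated DNA, and of -0.52 and -0.45 with CEBPB(V285A). aTTACttg had 2.94 and 3.29 with CREB1(A297V), and 2.51 and 0.90 with CEBPB(V285A). cTTACttc had 0.71 and 1.76 with CREB1(A297V), and 0.75 and 0.095 with CEBPB(V285A). The narrow signal range of the unmethylated CREB1(A297V) arrays moves with these values, and its part in them was not tested.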

How the results depend on the processing

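The number of TTAC 8-mers called between the mutants on methylated DNA was 519 and moved by over 1.5 times on probes without CG (294, of 725 words scored) and when single arrays were left out (249 to 582). The 371 called for methylation with CREB1(A297V) became 672 with median-centred log2 scores, 238 with signal over background, 137 with normexp, 222 without spatial detrending, 238 on probes without CG, 149 with only the groups compared, and 126 to 453 with single arrays left out. For CEBPB(V285A) the 60 became 447 with median-centred log2 scores, 13 with signal over background, 8 without spatial detrending, 113 on probes without CG, 276 with only the groups compared, and 2 to 123 with single arrays left out. For the difference between these differences the 28 became 227 with median-centred log2 scores, 8 with signal over background, 13 without spatial detrending, 67 with quantile normalization, 102 with the authors' deposited Z-scores, 44 without the variance trend, 46 with the replicate block, 48 with only the groups compared, and 0 to 150 with single arrays left out. With 1 array left in a group, that array is assumed to vary like the other groups. The replicate block gave 530, 399 and 76 calls in the other 3 comparisons. Deviations of same-numbered arrays from their group means correlated at -0.2132 to 0.3327, highest between CREB1 and CREB1(A297V) on unmethylated DNA. These values do not settle whether equal numbers pair the arrays, and the main fit did not pair them. The median over the TTAC 8-mers of the last comparison reversed with normexp (-0.30) and quantile normalization (-0.13), as did aTTACtca with normexp (-0.25) and aTTACtaa with quantile normalization (-0.35). For methylation with CREB1(A297V), quantile normalization reversed TTACatca (-1.34), TTACacaa (-0.27), aTTACaca (-1.01), aTTACata (-1.82), attaTTAC (-1.64) and aTTACaac (-0.62), and normexp reversed aTTACaca (-0.87) and aTTACata (-0.68). Probes without CG reversed ctTTACtt (0.56) and cTTACttc (1.36) there, gTTACcca between the mutants (0.66) and aTTACttg in the last comparison (0.28). The causes were not tested. With 2 arrays per group, words of high level had wide standard errors.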
